A study of Homo sapiens with 6 samples.

Results

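The 9 genes described here carry, extend or restrain the type I interferon signal, and they were followed in U251, an established cell line from a human glioma. They are the receptor chains IFNAR1 and IFNAR2, the kinases JAK1 and TYK2, the transcription factors STAT2, IRF9, IRF7 and IRF1, and the inhibitor SOCS1. The genes were chosen by name, not by their values, and each symbol matched 1 row of the deposited table, 9 of 21429 rows. STAT2, IRF9 and SOCS1 were lower in 2 of the 3 libraries in which RPL13 was targeted, and IRF1 lay below the control libraries in the same 2. The third such library, in which RPL13 itself was not lowered, had the highest STAT2, IRF1 and SOCS1 values of all 6 libraries. IFNAR1, JAK1, TYK2 and IRF7 each differed by no more than 0.20 (log2) between any pair of libraries.

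Each of the 6 libraries came from U251 cells that stably carry a mutant amyloid precursor protein (APP, K670N/M671L), so the controls carry this protein too. Cells were electroporated with a control siRNA (siNC-1 to siNC-3) or with an siRNA against RPL13 (siRPL13-1 to siRPL13-3), a gene for a ribosomal protein. All cultures received doxycycline at 1 µg/mL, which induces the introduced APP, with the medium change at 24 h, and all were harvested at 72 h. The labels call the 3 libraries of a group biological replicates without saying how the cultures were separated, so the p-values measure the spread between these cultures, which may be technical.

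Type I interferons bind a receptor made of IFNAR1 and IFNAR2, whose tails hold the kinases TYK2 and JAK1. The kinases phosphorylate STAT proteins, among them STAT2, which works with IRF9 in the complex ISGF3, and ISGF3 binds the interferon-stimulated response element (ISRE) of its target genes. STAT dimers, which also form after interferon gamma, bind the gamma-activated site (GAS). IRF1 and IRF7 are transcription factors that extend the response, and SOCS1 is a feedback inhibitor that binds the JAK kinases. STAT2, IRF9, IRF7, IRF1 and SOCS1 are themselves known to be interferon-inducible, while the receptor chains and kinases are largely constitutive.

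The promoters of the 4 members with the largest decrease in siRPL13-1 and siRPL13-2 are shown because ISRE and GAS sequences are what the members' own products act on. Each is a RefSeq window on GRCh38.p14 from 250 bases before to 50 bases after the transcription start, on the gene's strand. Capitals mark matches to the ISRE core, searched on both strands as GAAA-NN-GAAA, or to the GAS, searched as TTC-NNN-GAA, which reads the same on both strands. No window of a member held both motifs, so no matches overlapped. STAT2 lies at chr12:56360058-56360357 (minus strand), IRF9 at chr14:24161015-24161314 (plus), IRF1 at chr5:132490724-132491023 (minus) and SOCS1 at chr16:11256155-11256454 (minus).
STAT2: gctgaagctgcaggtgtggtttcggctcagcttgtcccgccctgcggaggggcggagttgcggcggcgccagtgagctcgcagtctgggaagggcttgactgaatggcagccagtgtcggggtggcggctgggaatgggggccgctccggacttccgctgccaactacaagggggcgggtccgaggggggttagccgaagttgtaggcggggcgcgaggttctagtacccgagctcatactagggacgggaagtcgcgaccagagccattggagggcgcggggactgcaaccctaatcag
IRF9: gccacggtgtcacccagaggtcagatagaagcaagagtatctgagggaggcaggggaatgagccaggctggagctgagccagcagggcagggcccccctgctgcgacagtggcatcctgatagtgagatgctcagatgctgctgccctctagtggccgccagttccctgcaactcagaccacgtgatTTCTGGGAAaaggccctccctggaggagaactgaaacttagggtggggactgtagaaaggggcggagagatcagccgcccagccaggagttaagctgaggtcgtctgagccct
IRF1: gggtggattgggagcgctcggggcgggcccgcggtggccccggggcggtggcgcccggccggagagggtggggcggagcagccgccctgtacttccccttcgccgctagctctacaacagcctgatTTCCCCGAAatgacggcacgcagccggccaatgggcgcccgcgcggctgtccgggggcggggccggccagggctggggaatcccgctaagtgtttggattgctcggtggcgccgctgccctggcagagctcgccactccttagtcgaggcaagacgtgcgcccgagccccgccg
SOCS1: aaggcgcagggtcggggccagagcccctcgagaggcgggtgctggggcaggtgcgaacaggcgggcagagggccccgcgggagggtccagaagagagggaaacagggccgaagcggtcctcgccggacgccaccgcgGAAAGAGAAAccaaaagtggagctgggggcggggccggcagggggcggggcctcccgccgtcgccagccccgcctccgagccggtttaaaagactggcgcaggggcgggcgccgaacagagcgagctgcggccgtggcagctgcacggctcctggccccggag

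The SOCS1 window held an ISRE core, GAAAGAGAAA, that begins 113 bases before the start. The IRF1 window held a GAS, TTCCCCGAA, that begins 124 bases before the start, and the IRF9 window held a GAS, TTCTGGGAA, that begins 63 bases before it. The STAT2 window held neither sequence. The table gave 10 windows for 7 of the 9 members, and those of IFNAR1, JAK1 and TYK2 held neither sequence; IFNAR2 and IRF7 were not matched. Of all 35116 windows 3.57% held the ISRE core and 7.66% the GAS. Among 60 windows of ISGF3 target genes from a fixed list, 36 held the ISRE core (60.0%), and 13 held the GAS (21.7%). The share with the ISRE core was 70.0% (14 of 20) for genes driven by interferon gamma, GAS elements or IRF1 and 26.3% (5 of 19) for interferon ligands and other receptor chains, and the GAS shares were 35.0% and 47.4%. A match describes the letters in the window and does not show that a factor binds there.

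Values are regularized-log (rlog) expression on the log2 scale, in which library size is removed and genes with few reads are pulled towards their mean, so differences of low genes are understated. Read depth is unknown from this table. RPL13 stood at 14.05 to 14.18 in siNC, at 13.03 and 13.12 in siRPL13-1 and siRPL13-2, and at 14.09 in the library labelled siRPL13-3, where the target was therefore not lowered. Differences of members, lists and pathway genes are given without that library (the 5-library comparison) and with all 6 libraries. The 9 members all passed the filter on low values (mean rlog of at least 3), among 15327 genes tested with limma. With all 6 libraries no gene passed an adjusted p of 0.05 (0 higher and 0 lower, 0% of the genes tested), and 8.32% had an unadjusted p under 0.05. Without the library labelled siRPL13-3, 8.42% of genes were called higher and 10.7% lower. Those shares rest on 2 siRPL13 libraries: with siRPL13-1 also left out, 102 genes were higher and 141 lower in place of 1291 and 1642, and with siRPL13-2 left out 383 and 560. Either setting sets 1 siRPL13 library against 3 siNC libraries, so its spread comes from siNC alone and the single library is assumed to vary alike; a call lost there says little about the size of a change. "Rose" and "fell" below refer to the 5-library comparison. In bulk RNA, fewer cells with a high level and less RNA per cell cannot be told apart.

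Of the 9 members 3 fell and 0 rose, against 10.7% and 8.42% of all genes. The median log2 difference of the members was -0.10, beside -0.0014 over all genes tested. At an unadjusted p under 0.05, which 33.4% of all genes reached, 4 members passed: STAT2, IRF9, IRF1 and SOCS1. Over all 6 libraries 0 of the 9 passed (limma), 1 of them, IRF9, had an unadjusted p under 0.05, and the median was -0.07. In siRPL13-1 and siRPL13-2, 6 members lay below every siNC library, where 26.6% of all genes did, and 1 lay above, where 24.7% did. IFNAR2 was among the 6 only narrowly, with siRPL13-2 at 8.0618 and siNC-1 at 8.0639. When the library labelled siRPL13-3 was included, 1 member, JAK1, lay below every siNC library (6.9% of all genes) and 0 lay above (6.92%).

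**Figure D1:**
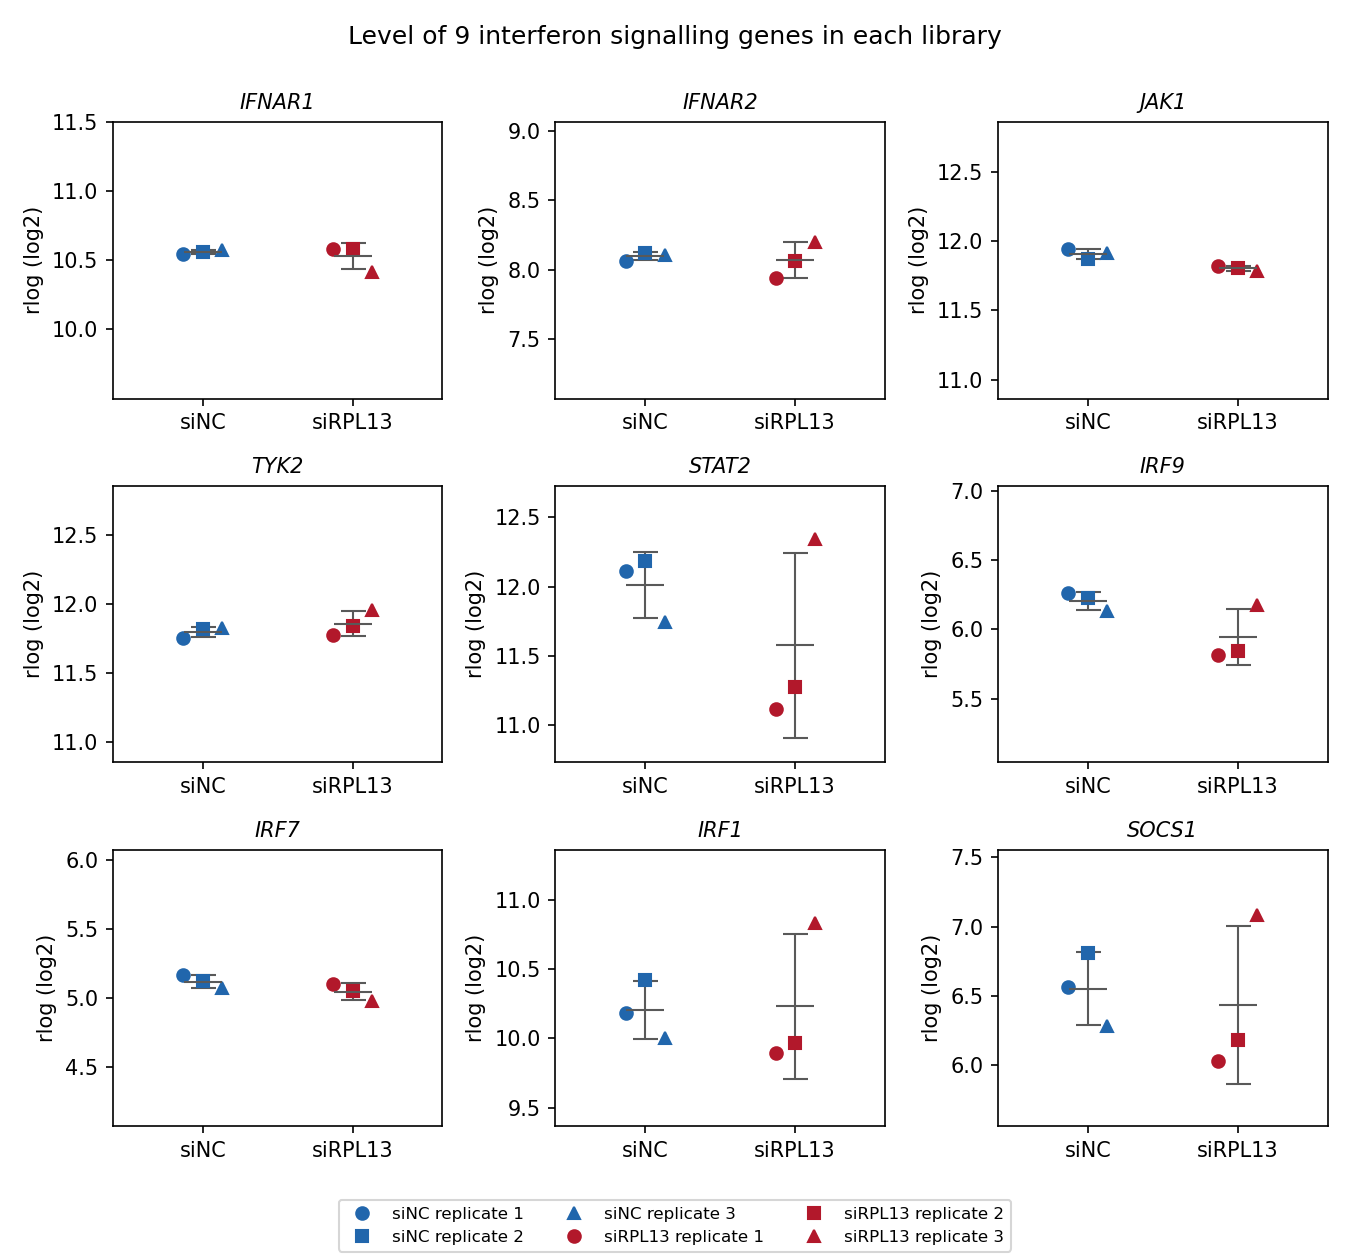
Level of the 9 members as rlog values (log2; vertical axes span the same 2 log2 units but do not start at 0), 1 point per library blue for siNC and red for siRPL13, with a shape for each replicate number and grey bars for the mean ± SD of 3 libraries. STAT2, IRF1 and SOCS1 are highest in the library labelled siRPL13-3, at 12.34, 10.83 and 7.09, and lowest in siRPL13-1, at 11.12, 9.89 and 6.03.

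The receptor chains did not pass the test. IFNAR1 (ENSG00000142166, GRCh38 chromosome 21, 33324477 to 33359862, plus strand) stood at 10.54, 10.56 and 10.57 in the siNC libraries, in order of number, and at 10.58, 10.58 and 10.42 in siRPL13. Its siRPL13 values lay just above the siNC range in replicates 1 and 2 and below it in the library labelled siRPL13-3. The log2 difference was 0.02 ± 0.05 (SE) without that library, with a 95% interval of -0.09 to 0.14 and an adjusted p of 0.787, and -0.03 ± 0.07 with it (adjusted p 0.881).

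IFNAR2 (ENSG00000159110, chromosome 21, 33229901 to 33265675, plus strand), the chain with the long signalling tail, stood at 8.06, 8.12 and 8.11 in siNC and at 7.94, 8.06 and 8.20 in siRPL13. The siRPL13 libraries lay on both sides of the siNC range. Its difference was -0.10 ± 0.07 in the 5-library comparison, with a 95% interval of -0.26 to 0.07 (adjusted p 0.392), and -0.03 ± 0.08 with all 6 libraries (adjusted p 0.917). Of its exonic bases in GENCODE 29, 83.2% are shared with another gene: 44.2% with a protein-coding gene of the same strand that has no row (ENSG00000249624) and 39.1% with the antisense gene IL10RB-DT. Reads in those bases may be assigned to neither gene or to another one, so the IFNAR2 level is uncertain.

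The kinases differed little. JAK1 (ENSG00000162434, chromosome 1, 64833229 to 64966504, minus strand) stood at 11.94, 11.87 and 11.91 in siNC and at 11.82, 11.81 and 11.79 in siRPL13. It was the member whose groups did not overlap with all 6 libraries, with siRPL13 lower. The difference was -0.10 ± 0.05 (SE) in both comparisons (95% interval -0.20 to 0.01 without the library labelled siRPL13-3), with an adjusted p of 0.190 without that library and 0.594 with it. With library weights estimated by limma over all 6 libraries, which gave that library a weight of 0.163, siRPL13-1 0.992 and siRPL13-2 7.19 and stopped before their estimate converged, the JAK1 difference of -0.10 had an adjusted p of 0.0442; weighted values, also those of STAT2, IRF9 and SOCS1, rest mostly on siRPL13-2 among the siRPL13 libraries. TYK2 (ENSG00000105397, chromosome 19, 10350529 to 10380676, minus strand) stood at 11.76, 11.82 and 11.82 in siNC and at 11.78, 11.84 and 11.95 in siRPL13. The groups overlapped, with the library labelled siRPL13-3 highest. The TYK2 difference was 0.01 ± 0.05 in the 5-library comparison, with a 95% interval of -0.10 to 0.12 (adjusted p 0.916), and 0.06 ± 0.06 with all 6 libraries (adjusted p 0.767).

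STAT2 and IRF9, the subunits that mark ISGF3, fell. STAT2 (ENSG00000170581, chromosome 12, 56341597 to 56360155, minus strand) stood at 12.11, 12.19 and 11.74 in siNC, at 11.12 and 11.27 in siRPL13-1 and siRPL13-2, and at 12.34 in the library labelled siRPL13-3. Replicates 1 and 2 lay below every siNC library, and the third siRPL13 library lay above every one. STAT2 fell by 0.82 ± 0.11 (SE, log2) in the 5-library comparison, to 56.7% of siNC when the rlog difference is taken off the log scale. The 95% interval of the log2 difference was -1.06 to -0.58 and the adjusted p 0.00111 (limma). STAT2 stayed past the threshold in each of the 13 alternative settings of that comparison, among them a robust variance trend (adjusted p 0.0165), though 2 of these settings hold 1 siRPL13 library and rest on the spread of siNC alone. Over all 6 libraries the siNC mean was 12.01 ± 0.24 and the siRPL13 mean 11.58 ± 0.67 (SD, n = 3 each), and the difference of -0.44 ± 0.28 (SE) did not pass (adjusted p 0.644, limma); with library weights it was -0.66 (adjusted p 0.00245).

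IRF9 (ENSG00000213928, chromosome 14, 24161053 to 24166565, plus strand), the subunit that contacts DNA in ISGF3, stood at 6.26, 6.23 and 6.14 in siNC, at 5.82 and 5.85 in siRPL13-1 and siRPL13-2, and at 6.18 in the library labelled siRPL13-3. That library lay within the siNC range, unlike its STAT2 value. IRF9 fell by 0.38 ± 0.07 (SE) in the 5-library comparison, to 77.1% of siNC (95% interval -0.53 to -0.22, adjusted p 0.00570, limma). With siRPL13-1 also left out, which leaves 1 siRPL13 library, the difference was nearly as large (-0.36) and did not pass (adjusted p 0.0933). The difference over all 6 libraries was -0.26 ± 0.10 (adjusted p 0.588), and with library weights -0.34 (adjusted p 0.00177). Another protein-coding gene of the same strand (ENSG00000259529) shares 48.4% of the IRF9 exonic bases and had its own row at 3.58 to 3.83, so the IRF9 level is uncertain too.

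The other transcription factors differed from each other. IRF7 (ENSG00000185507, chromosome 11, 612553 to 615999, minus strand), which amplifies interferon production in leukocytes, stood at 5.16, 5.12 and 5.07 in siNC and at 5.10, 5.05 and 4.98 in siRPL13. The groups overlapped, and the library labelled siRPL13-3 was the lowest. The IRF7 difference was -0.04 ± 0.06 in the 5-library comparison (95% interval -0.18 to 0.09, adjusted p 0.679) and -0.07 ± 0.06 with all 6 libraries (adjusted p 0.681). At a mean rlog near 5 a difference may be understated by the shrinkage.

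IRF1 (ENSG00000125347, chromosome 5, 132481609 to 132490798, minus strand) stood at 10.18, 10.42 and 10.01 in siNC, at 9.89 and 9.96 in siRPL13-1 and siRPL13-2, and at 10.83 in the library labelled siRPL13-3. Replicates 1 and 2 lay just below siNC-3, and the third siRPL13 library lay above all others. The IRF1 difference was -0.27 ± 0.10 (SE) in the 5-library comparison (95% interval -0.49 to -0.06) and did not pass (adjusted p 0.0741, limma). It passed with siNC-3 left out as well (-0.37, adjusted p 0.0167). Over all 6 libraries it was 0.03 ± 0.23 (adjusted p 0.976), of the opposite sign. The antisense gene IRF1-AS1 shares 22.0% of the IRF1 exonic bases and had its own row, at 6.43 to 6.85 in siNC, 6.52 and 6.51 in siRPL13-1 and siRPL13-2, within the siNC range, and 7.21 in the library labelled siRPL13-3. The sources used here do not state whether counting kept strand, so reads of these 2 genes cannot be told apart in the shared bases.

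SOCS1 (ENSG00000185338, chromosome 16, 11254405 to 11256200, minus strand), the feedback inhibitor of JAK1 and TYK2, stood at 6.56, 6.81 and 6.28 in siNC, at 6.03 and 6.18 in siRPL13-1 and siRPL13-2, and at 7.09 in the library labelled siRPL13-3. As for STAT2, the first 2 lay below every siNC library and the third above. SOCS1 fell by 0.44 ± 0.13 (SE) in the 5-library comparison, to 73.5% of siNC (95% interval -0.72 to -0.16, adjusted p 0.0334, limma). The call was lost when siNC-2 (-0.32, adjusted p 0.0723), siRPL13-1 (-0.37, adjusted p 0.262) or siRPL13-2 (-0.52, adjusted p 0.0847) was also left out, the last 2 of which leave 1 siRPL13 library. The difference over all 6 libraries was -0.12 ± 0.26 (adjusted p 0.888), and -0.29 with library weights (adjusted p 0.0767).

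**Figure D2:**
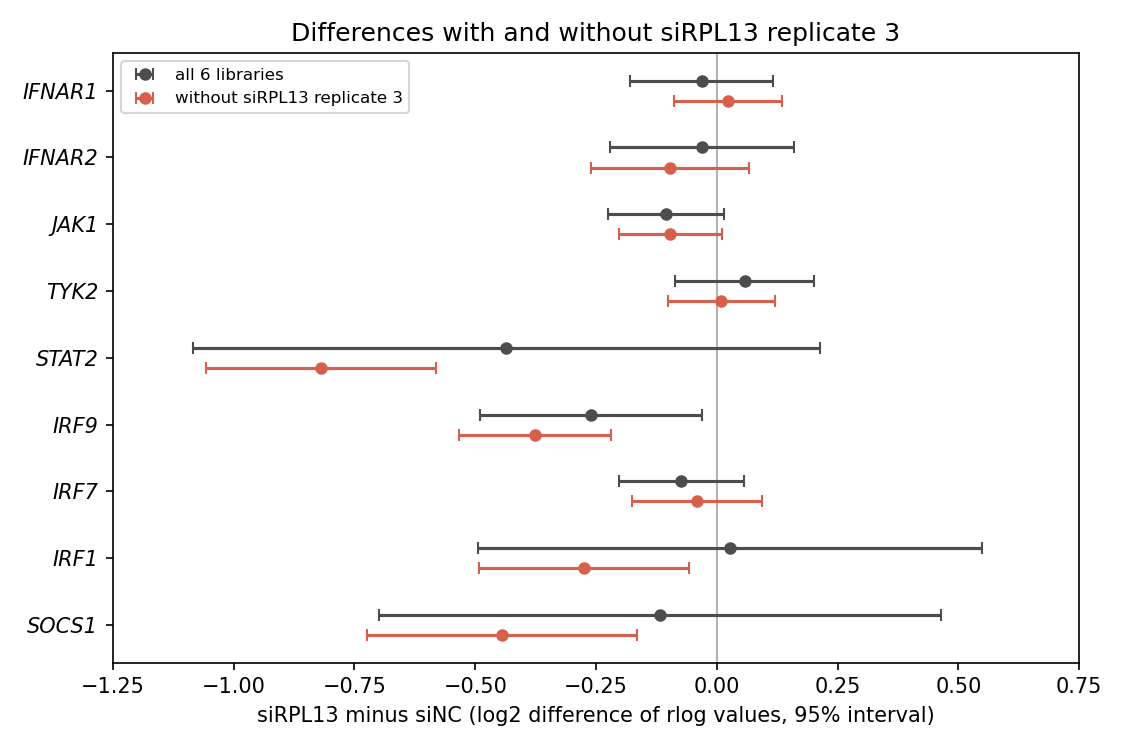
Log2 difference of each member (siRPL13 minus siNC, horizontal axis) with its unadjusted 95% interval from limma, over all 6 libraries in grey and without the library labelled siRPL13-3 in red. STAT2 lies at -0.44 with that library and -0.82 without it, while JAK1 lies at -0.10 both times.

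The members differed in how much they varied between libraries. STAT2 spanned 1.23 log2 units over the 6 libraries, SOCS1 1.06 and IRF1 0.94, which placed them at the 99.5th, 99.2th and 99.0th percentile of the 15327 genes tested. IRF9 spanned 0.44 (88.8th percentile) and IFNAR2 0.26 (56.0th), and TYK2, IRF7, IFNAR1 and JAK1 spanned 0.20, 0.18, 0.17 and 0.15, below the median of 0.24. The variation was also present among the controls: siNC-2 exceeded siNC-3 by 0.45 for STAT2, 0.42 for IRF1 and 0.53 for SOCS1, and the siNC ranges of these 3 genes lay between the 98.2th and 99.3th percentile.

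STAT2, IRF1 and SOCS1 placed the 6 libraries in the same order. From low to high it was siRPL13-1, siRPL13-2, siNC-3, siNC-1, siNC-2 and the library labelled siRPL13-3. Of the 15327 genes tested 303 had this order (1.98%), and of 50 ISGF3 target genes tested 39 had it. The orders of the other members were shared by fewer or about as many genes: 2.07% for IFNAR2, 0.809% for IFNAR1, 0.463% for IRF9, 0.196% for JAK1, 0.144% for TYK2 and 0.0783% for IRF7. A wider pattern, with siRPL13-1 and siRPL13-2 below and the third siRPL13 library above every siNC library, was met by 4 of the 9 members (STAT2, IRF1, SOCS1 and IFNAR2), by 48 of the 50 ISGF3 target genes and by 10.1% of all genes tested. IFNAR2 met it only narrowly, with siRPL13-2 at 8.0618 and siNC-1 at 8.0639. The order was taken from these members themselves, and the fall of an overlapping list in these data was already known. The counts of ISGF3 target genes are therefore not independent support. Between members, the root mean square difference of the profiles (each centred on its mean over 6 libraries) was smallest among 36 pairs for JAK1 and IRF7 (0.04) and largest for IFNAR1 and STAT2 (0.51). It was 0.09 for IRF1 and SOCS1 and 0.18 for STAT2 and SOCS1.

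Likeness to single other genes was measured for each member. The measure was the same root mean square difference over 6 libraries, among 12847 other genes whose mean rlog reached 5. TRIM25, a ubiquitin ligase of RNA sensing, and NMI, an interferon-induced STAT-binding protein, were nearest to STAT2 among named genes, at 0.06 and 0.08, with the unnamed ENSG00000225886 also at 0.08. RTP4, an interferon-induced chaperone, PKD1P3, a pseudogene whose reads may belong to near-identical copies, and IL4I1, an amino acid oxidase, were nearest to IRF1 at 0.03, 0.05 and 0.05. GBP5, a guanylate-binding protein, SAMD9L, an antiviral factor, and OGFR were nearest to SOCS1 at 0.03, 0.04 and 0.06. IRF9 had TMEM40, PGD and LITAF nearest, at 0.02, 0.03 and 0.03.

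The other members varied less. The measure keeps the size of the variation, so only genes that varied about as little could be nearest to them. IFNAR1 had NDUFB4, KIAA1191 and SLC25A15 nearest, IFNAR2 had HSPE1P2, SART3 and CLCN2, JAK1 had CTNNA1 and UBE2A among its nearest, TYK2 had DDX54 and H2AC20, and IRF7 had PTBP2, WASHC2C and LANCL3, all at 0.01 to 0.02. The genes named here whose windows held the ISRE core are NMI, RTP4 and OGFR, near STAT2, IRF1 and SOCS1, and CTNNA1, near the flat JAK1, in 1 of its 4 windows. The windows of TRIM25, IL4I1, SAMD9L and of the genes nearest to IRF9 held none, and GBP5 was not matched. A stretch of each gene is printed for comparison with that of SOCS1, on the gene's strand and in GRCh38.p14, with the core in capitals; in NMI, OGFR and CTNNA1 it runs on the opposite strand. RTP4 held a second core closer to its start. A GAS lay in the NMI window and in 1 of the CTNNA1 windows, and in no other window of the nearest genes.
SOCS1 chr16:11256298-11256327: cgccaccgcgGAAAGAGAAAccaaaagtgg
RTP4 chr3:187368333-187368362: tccatacacaGAAACAGAAActgaaccgaa
NMI chr2:151289812-151289841: ttaaagcagtTTTCTTTTTCactgtctttt
OGFR chr20:62804803-62804832: cttcctctgcTTTCGGTTTCgcttccgcct
CTNNA1 chr5:138875092-138875121: aaagcattggTTTCATTTTCtgtgattgct

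**Figure D3:**
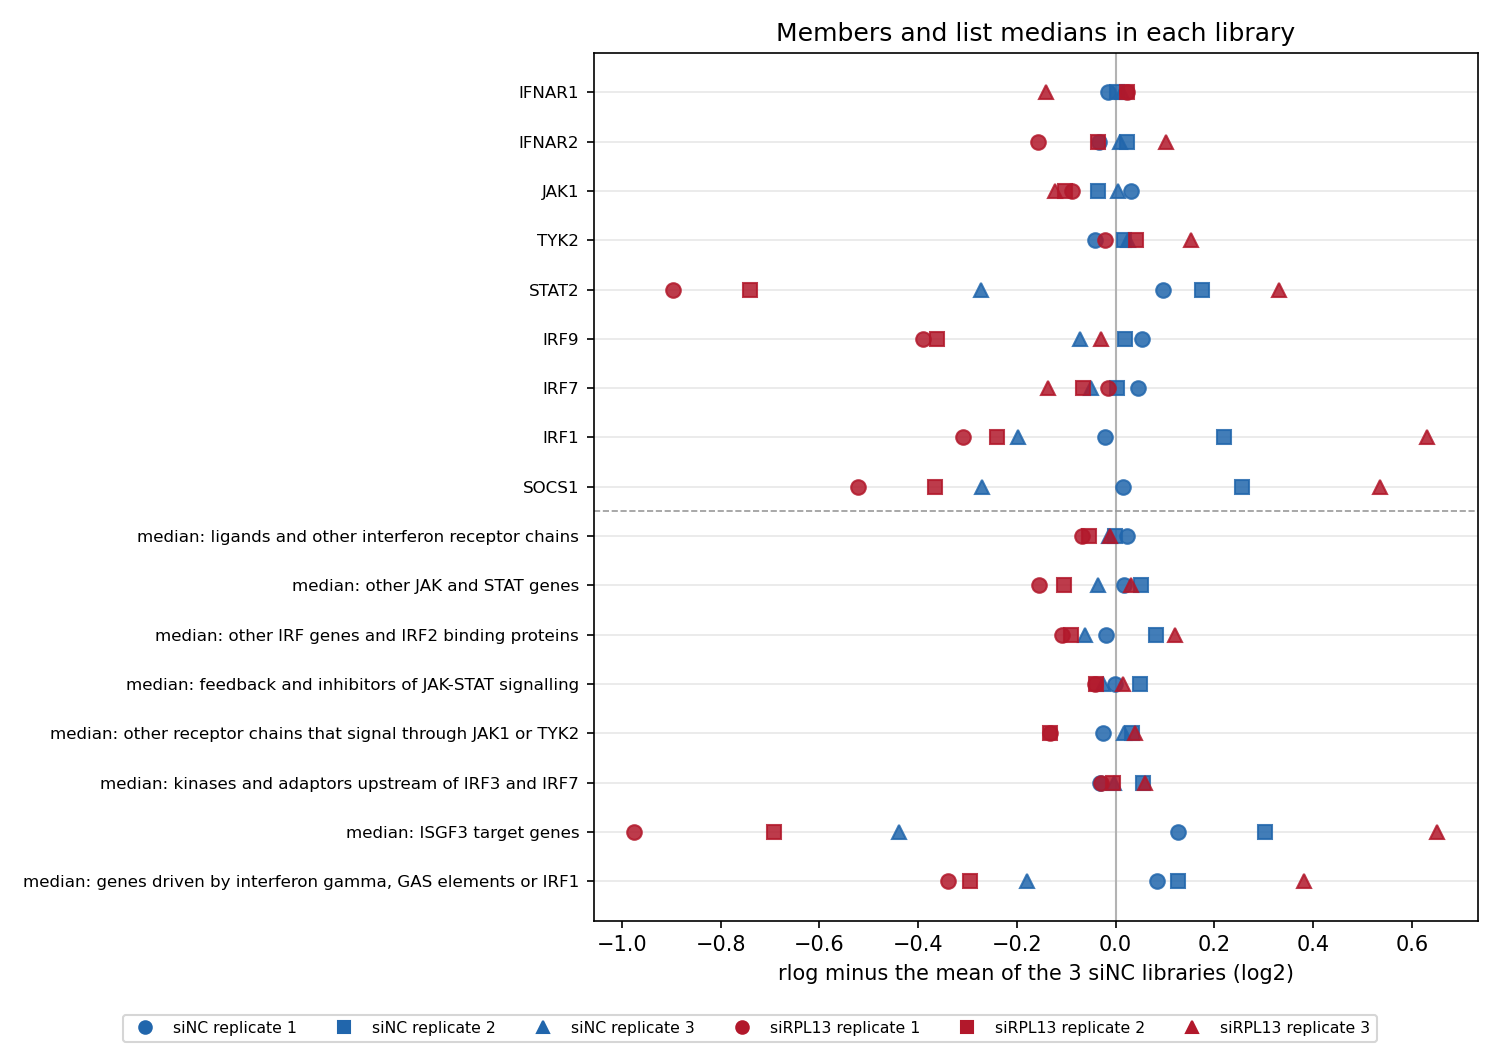
Distance (log2, horizontal axis) from the siNC mean for each member and, under the dashed line, for the median of 8 lists of other pathway genes, 1 point per library blue for siNC and red for siRPL13, with a shape for each replicate number. The ISGF3 target median lies at 0.65 in the library labelled siRPL13-3 and at -0.98 and -0.69 in siRPL13-1 and siRPL13-2, and STAT2, IRF1 and SOCS1 spread the libraries in the same order.

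Genes that ISGF3 acts on were counted next, beside the 8.42% of all genes that rose and the 10.7% that fell. Of 50 ISGF3 target genes tested 48 fell and 0 rose, with a median log2 difference of -0.83 beside -0.0014 over all genes. Over all 6 libraries the median was -0.33, beside -0.0008 over all genes, and 0 genes passed (limma). The list overlaps one whose fall in these data was already known, so it is not independent support. As the median over the list of each gene's distance from its siNC mean, the libraries stood at 0.13, 0.30 and -0.44 in siNC, -0.98 and -0.69 in siRPL13-1 and siRPL13-2 and 0.65 in the library labelled siRPL13-3. OAS2, an enzyme that makes the activator of RNase L, fell by 1.70 ± 0.32 (SE), the dynamin-like antiviral gene MX2 by 1.69 ± 0.28 and the membrane antiviral gene IFITM1 by 1.66 ± 0.36. Their differences over all 6 libraries were -0.75, -0.76 and -0.69. The number that fell dropped from 48 to 6 with a robust variance trend and to 1 with siRPL13-1 also left out. OAS2, MX2 and IFITM1 did not pass with the robust trend (adjusted p 0.156, 0.13 and 0.194). Of 22 tested genes driven by interferon gamma, GAS elements or IRF1, 11 fell and 1 rose (median -0.29, and -0.10 over all 6 libraries). The 11 became 1 without siRPL13-1, 5 without siRPL13-2 and 7 without siNC-2. APOL6 fell by 0.97 ± 0.15, NLRC5, the activator of class I antigen presentation genes, by 0.74 ± 0.14 and the guanylate-binding protein gene GBP1 by 0.72 ± 0.15, while CD274, which encodes PD-L1, rose by 0.25 ± 0.06. Over all 6 libraries these 4 genes differed by -0.44, -0.22, -0.22 and 0.26. The 3 falls also did not pass with a robust variance trend (adjusted p 0.082, 0.105 and 0.118).

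Among other JAK and STAT genes, 2 of 6 tested fell and 1 rose (median -0.11, and -0.09 over all 6 libraries). Of all genes 10.7% fell and 8.42% rose, so counts this small in short lists say little about a list as a whole. STAT5A, which serves growth hormone and cytokine receptors, fell by 0.35 ± 0.07 and STAT3, the main STAT of the interleukin 6 family, by 0.18 ± 0.05, with -0.20 and -0.09 over all 6 libraries. STAT3 did not pass with quantile scaling (-0.12, adjusted p 0.133) or no variance trend (adjusted p 0.0642), nor without siNC-2 (adjusted p 0.0576). JAK2, the kinase of the interferon gamma and growth hormone receptors, rose by 0.26 ± 0.07 and was at 9.37 to 9.41 in all 3 siRPL13 libraries against 9.02 to 9.21 in siNC (0.25 over all 6 libraries, not passing). The JAK2 call was lost with the replicate number as a block (0.20, adjusted p 0.086) and without siNC-3 (adjusted p 0.0796). Among the other IRF genes and IRF2 binding proteins 1 of 6 fell, IRF2BPL by 0.24 ± 0.06 (-0.11 over all 6 libraries), and 0 rose (median -0.10, and -0.03 over all 6). IRF3, a transcription factor activated downstream of nucleic acid sensors, had a difference of 0.07 ± 0.05 (adjusted p 0.378), and 0.08 over all 6 libraries.

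Of the interferon ligands and other interferon receptor chains, 7 of 19 had a row and 5 were tested. IFNB1 and IFNA1 stayed below the filter, at 1.71 to 1.87 and 1.27 to 1.34, and IFNE was at 3.60 to 3.82. IFNGR1, the ligand-binding chain for interferon gamma, rose by 0.26 ± 0.07 and IFNLR1, the chain specific to interferon lambda, fell by 0.28 ± 0.08 (median of the list -0.07). They differed over all 6 libraries by 0.12 and -0.13 (median -0.02). Both calls were lost without siNC-2 (adjusted p 0.0591 and 0.0877) and without siNC-3 (adjusted p 0.0603 and 0.0658). Of 15 feedback genes and inhibitors tested 2 rose and 2 fell, where 8.42% and 10.7% of all genes did (median -0.04, and -0.0021 over all 6 libraries). USP18, an interferon-induced inhibitor that binds IFNAR2, stood at 10.76, 11.03 and 10.30 in siNC, 9.82 and 10.06 in siRPL13-1 and siRPL13-2 and 11.41 in the library labelled siRPL13-3, and fell by 0.75 ± 0.16. The adaptor SH2B3 fell by 0.21 ± 0.06, and the phosphatase gene PTPN11 and SOCS4 rose by 0.36 ± 0.06 and 0.26 ± 0.08. USP18, SH2B3, PTPN11 and SOCS4 differed by -0.27, -0.10, 0.16 and 0.14 over all 6 libraries. The USP18 call was lost with a robust variance trend (adjusted p 0.163), that of SH2B3 with quantile scaling (adjusted p 0.0538) or no trend (0.052), and without siNC-2 (0.061) or siNC-3 (0.0542). The SOCS4 call was lost with no filter (adjusted p 0.0645) or no trend (0.0617). SOCS3, the SOCS gene of the interleukin 6 response, had a difference of -0.06 ± 0.06 (adjusted p 0.545), and -0.07 over all 6 libraries.

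Of 10 tested receptor chains that signal through JAK1 or TYK2 for other cytokines, 1 rose and 3 fell (median -0.13, and -0.05 over all 6 libraries). Of all genes 8.42% rose and 10.7% fell. IL7R rose by 0.49 ± 0.08, and IL22RA1, the oncostatin M receptor gene OSMR and IL13RA1 fell by 0.35 ± 0.09, 0.22 ± 0.06 and 0.20 ± 0.06. With the library labelled siRPL13-3 included, IL7R differed by 0.34, IL22RA1 by -0.03, OSMR by -0.13 and IL13RA1 by -0.22. The IL13RA1 call was lost with no filter (adjusted p 0.0558), with the replicate number as a block (0.0736) and without siNC-3 (0.0853), and those of IL22RA1 and OSMR without siNC-2 (0.0661 and 0.0589). Of 12 kinases and adaptors upstream of IRF3 and IRF7, 1 rose and 2 fell (median -0.0048, and -0.0022 over all 6 libraries). The kinase gene IRAK1 rose by 0.33 ± 0.06, and MYD88, the adaptor of Toll-like receptors, and STING1, the receptor for cyclic dinucleotides, fell, with differences of -0.55 ± 0.10 and -0.43 ± 0.07. These 3 genes differed over all 6 libraries by 0.24, -0.23 and -0.23. MYD88 stood at 12.16 in the library labelled siRPL13-3, above the siNC range of 11.50 to 11.87, as STAT2 did. With siRPL13-1 left out as well, which leaves 1 siRPL13 library, none of the 24 pathway genes named from these lists passed the threshold. Each kept its direction, with differences such as -1.38 for OAS2, -1.56 for IFITM1, 0.38 for PTPN11 and -0.18 for STAT3.

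**Figure D4:**
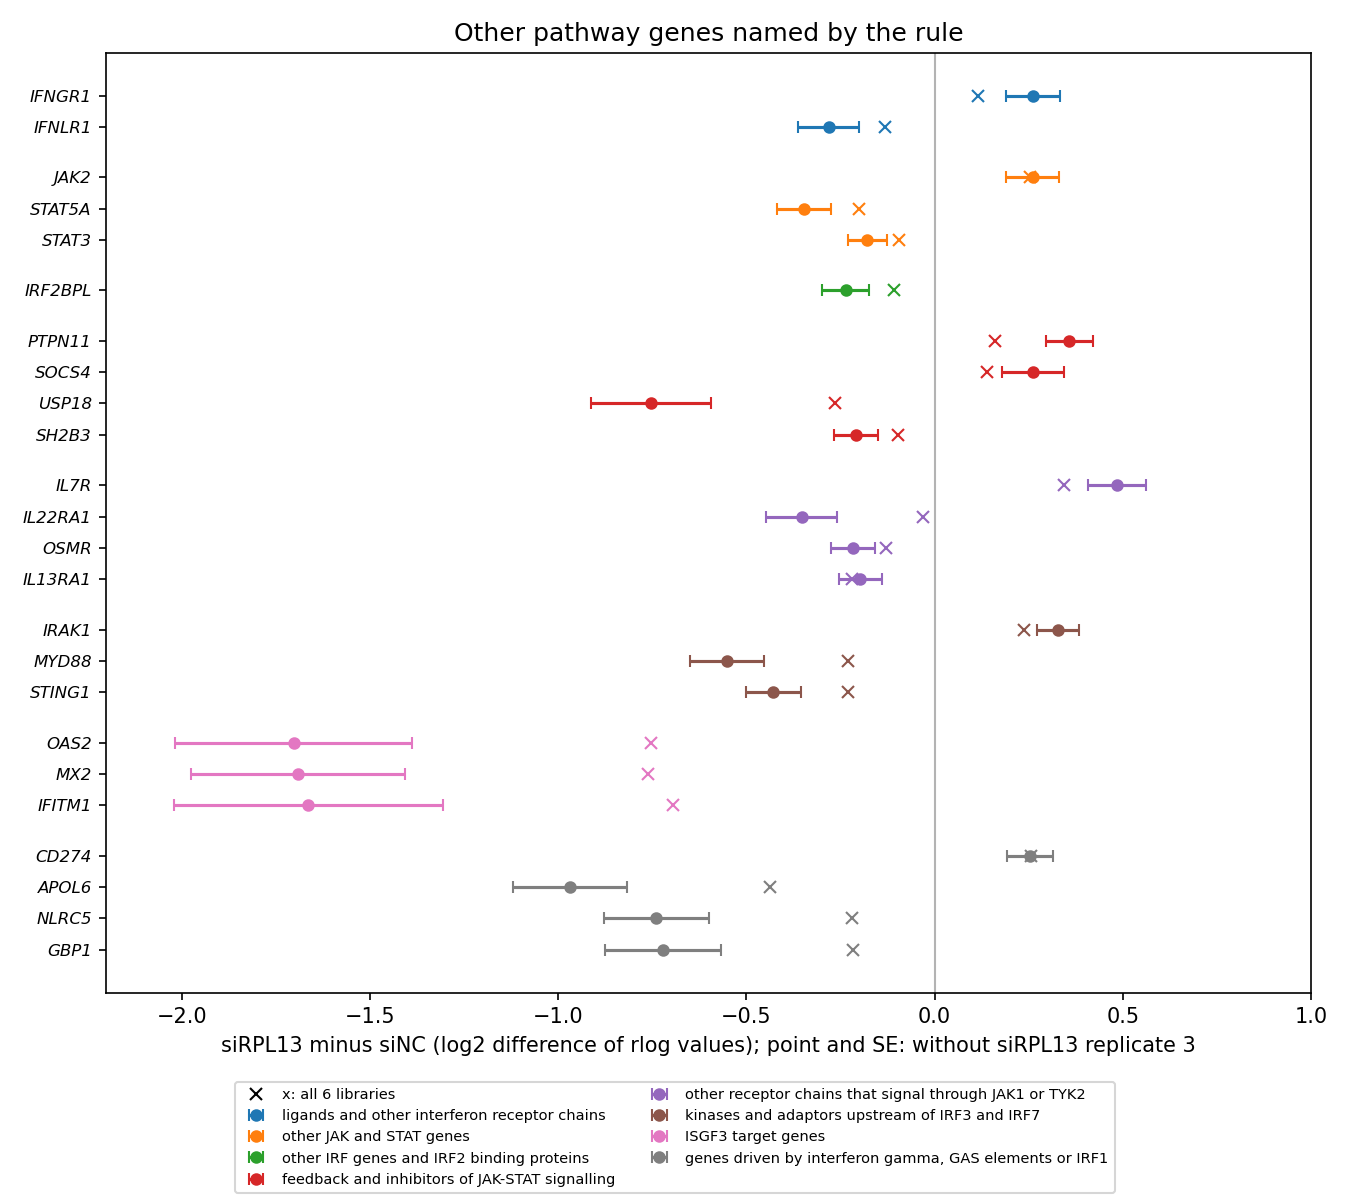
Log2 difference (siRPL13 minus siNC, horizontal axis) of the pathway genes named by the fixed rule, grouped and coloured by list, with points and SE bars without the library labelled siRPL13-3 and crosses for all 6 libraries. OAS2 lies at -1.70 without that library and at -0.75 with it, and JAK2 at 0.26 and 0.25.

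The labelled cell type was checked with markers. Of 12 astrocyte and glioma markers 11 had a row, and AQP4 had none. GFAP stood at 14.73 to 15.50, VIM at 15.90 to 16.33 and S100B lower, at 5.48 to 5.83. ALDH1L1 was below the filter, at 0.77 to 0.85, and 2 of 10 tested fell, where 10.7% of all genes did. Of 13 microglia and leukocyte markers 5 had a row and 2 passed the filter, CD14 at 3.51 to 3.67 and CSF1R at 4.88 to 5.22; ITGAM and CD68 were at 0.19 to 0.22 and 0.36 to 0.40 in every library, and PTPRC, SPI1 and AIF1 had no row. The log2 of the summed level of the 5 genes with a row was 5.59 to 5.66 in siNC. It was 5.54, 5.62 and 5.76 in siRPL13-1, siRPL13-2 and the library labelled siRPL13-3. The neuronal gene STMN2 was at 7.71 in the library labelled siRPL13-3 and at 4.61 to 4.66 in the other 5 libraries; its part in the values of that library was not tested. Of 8 neuronal, 1 oligodendrocyte and 5 endothelial markers tested, 0, 0 and 2 rose and 0, 0 and 1 fell. Some neuronal and endothelial markers were well above the filter, with MAP2 at 10.32 to 10.66, SYT1 at 8.58 to 8.78 and KDR at 11.75 to 12.06. Others of the same lists were low, with RBFOX3 at 0.20 to 0.23 and TEK at 0.52 to 0.58.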

How the data were processed

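RNA of 6 cultures was sequenced, per the labels from 1.5 µg of total RNA with a NEBNext Ultra kit. The deposited values are rlog values on the log2 scale, 1 per gene and library, made by the authors as the name of the table states. Per the submitters' processing notes, Trimmomatic 0.33, TopHat, HTSeq 0.6.1p1, DESeq2 and GRCh38.p7 were used, with no steps assigned. No count model fits such values, and the depth per library is unknown. Groups and replicate numbers came from the titles. Symbols came from a table of current gene names (20499 of 21429 identifiers) and GENCODE 29 (20608), which gave positions; 821 identifiers were in neither.

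The 15327 genes whose mean over the 6 libraries reached 3 were compared with limma 3.58.1 in R 4.3.3 (lmFit, eBayes with trend, two-sided), with p-values adjusted by Benjamini-Hochberg across those genes and called under 0.05; intervals are 95% and unadjusted. The members and lists were chosen with earlier results of these data known, among them that RPL13 was not lowered in siRPL13 replicate 3. Genes were named by rule: RPL13, the 9 members, up to 3 genes per direction of each of 8 pathway lists with the largest difference among those past the threshold in the 5-library comparison, and the 3 genes most like each member. A few genes that these lists and rules would include are not reported here, and the lists were counted without them. IRF3, SOCS3, the ligands and the overlapping genes were named after their values were seen. Alternatives were to drop the filter or raise it to 5, to scale by quantiles, to centre on medians, to change the variance trend (none, robust), library weights, the replicate number as a block and leaving out each library. Simulated data of 15327 genes, with 100 shifted by 0.5 and 100 by 1 (log2), tested the fits. Over all 6 libraries 75% and 100% of the shifted genes were found, and 82% and 99% in the 5-library comparison. Of the unshifted genes 6 and 2 were called. The simulated noise was independent between genes, and the spread of the most variable genes was capped. The rates therefore do not describe genes as variable as STAT2, IRF1 and SOCS1, or a deviation of 1 library shared by many genes. Figures were drawn with matplotlib 3.10.9.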

Additional observations from a re-analysis of the deposited data

How the results depend on the processing

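With all 6 libraries, library weights gave 2601 genes higher and 2708 lower and 3 members lower, where the unweighted fit gave 0; the other settings that kept all 6 libraries gave 0. The estimate of the weights stopped before convergence in both comparisons. Leaving out 1 library gave 0 to 1291 genes higher, 0 to 1642 lower and 0 to 3 members lower, the upper values all without siRPL13 replicate 3. Signs turned for differences near 0: IFNAR1 to 0.0148 (weights), IRF1 to -0.18 (weights), and on leaving out 1 library, where IFNAR1 ranged from -0.0592 to 0.0233, IFNAR2 from -0.0963 to 0.0339, IRF1 from -0.27 to 0.20 and SOCS1 from -0.44 to 0.0846. In the 5-library comparison TYK2 turned to -0.0007 (weights) and ranged from -0.022 to 0.0409 on leaving out 1 more library. There library weights gave 2007 genes higher, and leaving out 1 more library gave 102 to 1734 higher, 141 to 2014 lower and 1 to 4 members lower; 3 members stayed lower under each of the filter, scaling, trend and weight settings. The cause of these changes was not tested.

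List counts over all 6 libraries, 0 in the unweighted fit, became with weights 1 higher and 1 lower for ligands and other receptor chains, 1 and 3 for other JAK and STAT genes, 0 and 1 for other IRF genes, 5 and 4 for feedback genes, 2 and 3 for other cytokine receptor chains, 1 and 2 for upstream kinases and adaptors, 0 and 38 for ISGF3 targets and 1 and 10 for genes of interferon gamma; leave-one-out counts ranged from 0 to 1 and 0 to 1, 0 to 1 and 0 to 2, 0 and 0 to 1, 0 to 2 and 0 to 2, 0 to 1 and 0 to 3, 0 to 1 and 0 to 2, 0 and 0 to 48, and 0 to 1 and 0 to 11 in the same order. In the 5-library comparison the leave-one-out ranges were 0 to 1 and 0 to 1, 0 to 1 and 0 to 3, 0 and 0 to 1, 0 to 4 and 0 to 3, 0 to 1 and 0 to 5, 0 to 1 and 0 to 2, 0 and 1 to 49, and 0 to 1 and 1 to 16. Other JAK and STAT genes lower numbered 1 with quantile scaling or no variance trend. Feedback genes higher numbered 1 with no filter or no variance trend and 4 with weights, and those lower numbered 1 with quantile scaling, no variance trend or a robust one. Other cytokine receptor chains higher numbered 2 with no variance trend or with weights, genes of interferon gamma lower 7 with no variance trend, and ISGF3 targets lower 6 with a robust trend.

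Libraries with the same replicate number were not the most alike. Deviations from the group means correlated at 0.084, -0.428 and -0.328 for same-numbered pairs, and 0 of 3 siNC libraries correlated best with their own number. The siRPL13 mean includes the library labelled siRPL13-3, which therefore shapes the deviations of all siRPL13 libraries. The check thus cannot show whether the cultures were paired. With the replicate number as a block the 5-library comparison gave 1326 genes higher and 1717 lower and 4 members lower, IRF1 among them. With all 6 libraries 0 genes passed. In the 5-library block fit siNC replicate 3 had no partner and did not enter the difference, so IRF1 stood at -0.37, as without siNC-3. That fit leaves almost no spread of its own. Its p-values rest mostly on the variance of other genes, so its calls are not separate support. Under the block, other JAK and STAT genes numbered 0 higher, other IRF genes 2 lower, feedback genes 4 lower, other cytokine receptor chains 2 higher and genes of interferon gamma 18 lower. Shrinkage of rlog values and the unknown depth limit what can be said of SOCS1, IRF9 and IRF7, the members with the lowest mean levels.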
